A study of Mus musculus with 3 samples.

Results

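The 6 genes described here belong to neurotrophin signalling and were measured in ribosome-bound RNA of the mouse deep cerebellar nuclei: the receptor genes Ntrk2, Ntrk3, Ngfr and Sort1 and the ligand genes Bdnf and Ntf3. They were taken by symbol as a family, and all 6 of 6 were found among the 32531 genes counted. The RNA came from adult mice of the line Htr6-TRAP NIDA113 on the C57BL/6J strain, which is named for Htr6, a serotonin receptor gene, and carries ribosomal protein L10a tagged with EGFP. In translating ribosome affinity purification (TRAP), tagged ribosomes are pulled from homogenised tissue with antibodies against EGFP, and the RNA that they hold is sequenced. There are 3 libraries of this single group, replicates 1, 2 and 3, with no treatment named in the labels. Whole-tissue RNA was not analysed here, so every value below is a level in purified RNA and not an enrichment. The sources used here name neither the cell type that drives the transgene nor the number of animals behind a library, so the spread between libraries may be partly technical.

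Neurotrophins are secreted survival and plasticity factors that are made as precursors, cut by proteases and released from neurons and other cells. Brain-derived neurotrophic factor (Bdnf) acts mainly on the receptor tyrosine kinase TrkB (Ntrk2), and neurotrophin-3 (Ntf3) mainly on TrkC (Ntrk3). The p75 receptor (Ngfr) binds all neurotrophins, and together with the sorting receptor sortilin (Sort1) it binds their uncut precursors. In the cerebellum, Trk signalling is known for its part in granule cell migration and in the survival and synapses of granule and Purkinje cells.

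Both Trk genes make receptors with and without the kinase, and a count per gene does not tell them apart. The sequences below show where the coding sequences of the principal full-length transcript and of a truncated one part, since this is what the Ntrk2 and Ntrk3 counts pool. Each runs 5′ to 3′ along the coding strand, with the last 30 shared bases in lower case and the bases of that form alone in capitals, read from the transcripts of GENCODE release M21 (GRCm38, also called mm10).
Ntrk2 full-length (ENSMUST00000079828.6): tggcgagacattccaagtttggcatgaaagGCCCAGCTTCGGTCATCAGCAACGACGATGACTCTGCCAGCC
Ntrk2 truncated (ENSMUST00000109838.9): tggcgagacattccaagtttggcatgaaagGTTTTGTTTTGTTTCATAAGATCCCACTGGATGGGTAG
Ntrk3 full-length (ENSMUST00000039431.13): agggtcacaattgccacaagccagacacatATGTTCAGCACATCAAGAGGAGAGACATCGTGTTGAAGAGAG
Ntrk3 truncated (ENSMUST00000039438.8): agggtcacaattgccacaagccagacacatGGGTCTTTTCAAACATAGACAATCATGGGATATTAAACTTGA

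In Ntrk2 the forms shared the first 1393 coding bases, up to position 58878262 on the plus strand of chromosome 13. The truncated form went on in an exon that starts at 58932023, with 38 coding bases of its own that include the stop codon, while the full-length form went on at 58985802. In Ntrk3, on the minus strand of chromosome 7, they shared 1585 coding bases up to position 78356027. The truncated form went on at 78304426 with 254 coding bases of its own, and the full-length form at 78260414. Of the exon bases of the truncated transcripts, 25.4% in Ntrk2 and 44.9% in Ntrk3 also lay in the full-length transcript. Most annotated bases of either truncated form are therefore its own, but the deposited table sums them into 1 count per gene.

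Ntrk2 (ENSMUSG00000055254.15, chromosome 13, positions 58806569 to 59133970) was the most abundant of the 6 genes. It had 3566, 6524 and 4793 counts in replicates 1, 2 and 3, or 472, 740 and 615 CPM (counts scaled to the same library total for all libraries, after TMM adjustment of library sizes). Replicate 2 was the highest and replicate 1 the lowest. The mean was 609 ± 134 CPM (SD, n = 3), which placed Ntrk2 at rank 230 of the 32531 genes. It took 56.2%, 70.0% and 70.3% of the summed CPM of the 6 genes.

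Ntrk3 (ENSMUSG00000059146.12, chromosome 7, positions 78175959 to 78738012) was counted at a lower and steadier level. It had 1153, 1284 and 1023 counts, or 153, 146 and 131 CPM, with a mean of 143 ± 10.9 CPM (SD, n = 3). The libraries lay close together, the highest being 1.16 times the lowest. Ntrk2 had 3.09, 5.08 and 4.69 times as many counts as Ntrk3 in replicates 1, 2 and 3.

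Sort1 (ENSMUSG00000068747.14, plus strand of chromosome 3, positions 108284082 to 108361511), which also carries other cargo between the Golgi and endosomes, was of the same order as Ntrk3 in counts. Its 1600, 1487 and 913 counts were 212, 169 and 117 CPM, with a mean of 166 ± 47.4 CPM (SD, n = 3). Replicate 1 was the highest and replicate 3 the lowest, so Sort1 was highest in the library in which Ntrk2 was lowest. An antisense gene model overlaps 4.47% of the Sort1 exon bases, and since the strand setting is not given, reads there cannot be assigned to 1 strand.

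Ngfr (ENSMUSG00000000120.6, minus strand of chromosome 11, positions 95568818 to 95587735) was near the limit of detection. It had 22, 0 and 7 counts, or 2.91, 0 and 0.898 CPM. The 0 in replicate 2 allows a level of up to 0.419 CPM, the upper limit of its exact Poisson 95% interval (counting error only). The mean of 1.27 ± 1.49 CPM (SD, n = 3) rests on replicate 1, without which it was 0.453 CPM. The exact Poisson 95% intervals, which also cover counting error only, were 1.83 to 4.41 CPM in replicate 1 and 0.361 to 1.85 CPM in replicate 3. The p75 receptor gene was thus counted in 2 of 3 libraries. Across the libraries its range of levels overlapped that of Bdnf. Within each library the exact Poisson 95% intervals of both genes did not overlap, Ngfr being higher in replicate 1 and lower in replicates 2 and 3.

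Of the ligand genes, Bdnf (ENSMUSG00000048482.14, plus strand of chromosome 2, positions 109674700 to 109727007) had the higher mean. It had 1, 28 and 78 counts, or 0.132, 3.18 and 10.01 CPM, with a mean of 4.44 ± 5.06 CPM (SD, n = 3). The exact Poisson 95% intervals of 0.00335 to 0.738, 2.11 to 4.59 and 7.91 to 12.49 CPM in replicates 1, 2 and 3 did not overlap. Replicate 3 gave most of the Bdnf reads, and without it the mean was 1.64 CPM. The highest library was 75.6 times the lowest, which had 1 count. Wide ratios were common at this level. Among 1801 genes with a mean CPM within 1.5 times that of Bdnf, the median ratio was 18.3, and 64.6% had a smaller ratio. Both values count the 554 genes (30.8%) with a 0 in a library as having larger ratios than Bdnf. Such genes were most of those not below Bdnf. All 11 annotated Bdnf transcripts code for protein, and an antisense gene model overlaps 14.4% of the exon bases, so these counts pool all transcripts and possibly reads of the other strand.

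Ntf3 (ENSMUSG00000049107.13, minus strand of chromosome 6, positions 126101412 to 126166910) was the lowest of the 6 genes. It had 6, 0 and 0 counts, or 0.794 CPM in replicate 1. By the same upper limit the counts of 0 allow up to 0.419 CPM in replicate 2 and 0.473 CPM in replicate 3. All of its reads came from replicate 1, where its exact Poisson 95% interval was 0.292 to 1.73 CPM.

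**Figure D1:**
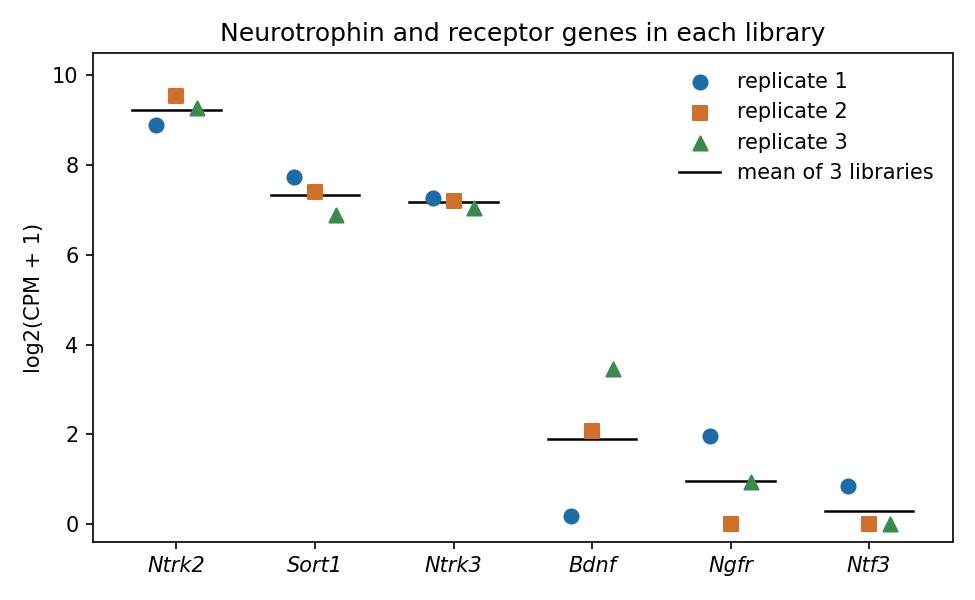
Level of the 6 genes in each library, as log2(CPM + 1), with 1 marker a replicate and a line at the mean of the 3 libraries. Ntrk2, Sort1 and Ntrk3 lie far above Bdnf, Ngfr and Ntf3, and the markers of Ntrk3 lie closest together.

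Detection split the family into 3 and 3. Ntrk2, Ntrk3 and Sort1 reached 3 or more counts in each library and a mean of at least 10 CPM, against 31.5% and 25.1% of all 32531 genes. Bdnf, Ngfr and Ntf3 met neither condition. Among genes whose mean CPM lay within 1.5 times that of Ngfr, 67.8% of 1254 had a count of 0 in at least 1 library, as had 93.6% of 769 genes near Ntf3 and 30.8% of 1801 near Bdnf. A 0 in some libraries was thus usual for genes at the level of Ngfr and Ntf3.

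Levels of different genes were compared per length, as RPKM (CPM divided by the kilobases of annotated exon). Ntrk2 was at 24.5, 38.4 and 31.9 RPKM, Sort1 at 28.0, 22.3 and 15.5 RPKM, and Ntrk3 at 5.06, 4.83 and 4.35 RPKM in replicates 1, 2 and 3. Bdnf was at 0.0213, 0.511 and 1.61 RPKM, Ngfr at 0.845, 0 and 0.261 RPKM, and Ntf3 at 0.463, 0 and 0 RPKM. The order of the means was therefore Ntrk2, Sort1, Ntrk3, Bdnf, Ngfr and Ntf3.

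Neighbours in that order did not all differ beyond their spread. The difference of Ntrk2 minus Sort1 on the log2(RPKM + 0.1) scale was 0.54 ± 0.65 (SD, n = 3), smaller than its SD, with Ntrk2 higher in 2 of 3 libraries. Ntrk3 minus Sort1 was -2.15 ± 0.32, with Ntrk3 lower in 3 of 3 libraries. Ntrk3 minus Bdnf was 3.27 ± 2.03, higher in 3 of 3. Ngfr minus Bdnf was -0.63 ± 3.12, with Ngfr higher in replicate 1 alone, and Ngfr minus Ntf3 was 0.87 ± 0.93; neither exceeded its SD.

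Between each Trk receptor gene and the gene of its main ligand the gap was wide. Ntrk2 exceeded Bdnf by 7.66, 5.98 and 4.23 log2 units of RPKM + 0.1 in replicates 1, 2 and 3, a mean of 5.95 ± 1.72 (SD, n = 3). The gap was narrowest in replicate 3, where Bdnf was highest, and its size depends on the pseudocount, being 4.33 with 1 RPKM in place of 0.1. Ntrk3 exceeded Ntf3 by 4.77 ± 1.36 in 3 of 3 libraries, a value set by the pseudocount in the 2 libraries where Ntf3 was at 0. Ntrk2 exceeded Ntrk3 by 2.69 ± 0.38, with 4.84, 7.95 and 7.33 times its RPKM in the 3 libraries. For all 15 pairs of the 6 genes the sign of each library's difference was flipped in every combination (exact permutation test, two-sided), where 0.25 is the smallest p that 3 libraries allow. The 11 pairs with 1 sign in every library had that p and a Benjamini-Hochberg adjusted permutation p of 0.341, so the sizes are judged against the SD.

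The annotated length decides how far Ntrk3 lies below Sort1. The exons of Ntrk3 span 30170 bases, those of Ntrk2 19292 and those of Sort1 7569, whereas their longest coding sequences have 2595, 2466 and 2577 bases. Per kilobase of coding sequence, a length chosen after the data were seen, Ntrk2 was at 247 ± 54.4, Sort1 at 64.4 ± 18.4 and Ntrk3 at 55.2 ± 4.20 RPKM (SD, n = 3). Ntrk3 minus Sort1 was then -0.18 in place of -2.15, and Ntrk2 minus Sort1 rose from 0.54 to 1.96. Ntrk2 was the highest by mean under every length used, and the sources used here do not give the gene models behind the counts.

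**Figure D2:**
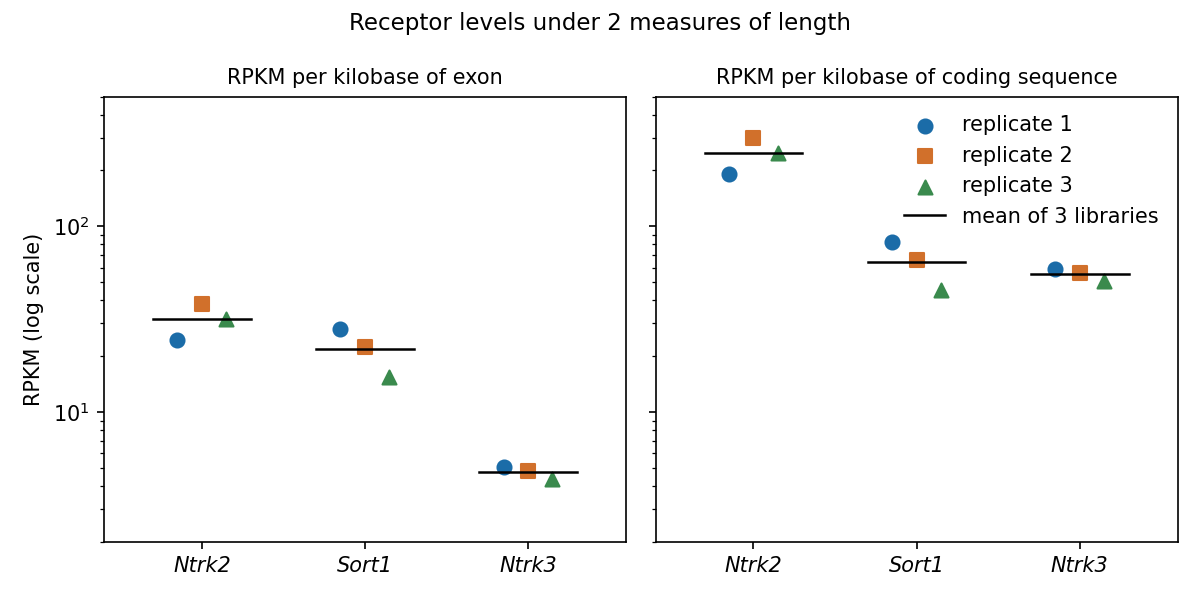
RPKM of Ntrk2, Sort1 and Ntrk3 on a log axis, per kilobase of annotated exon (left) and per kilobase of the longest coding sequence (right), with 1 marker a replicate and a line at the mean of 3 libraries. Sort1 lies well above Ntrk3 on the left, while on the right their markers overlap.

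Spread between the libraries was tested in the 4 genes with at least 10 counts in 2 libraries, as for 11168 genes in all. Ntrk2, Ntrk3, Sort1 and Bdnf all varied beyond counting error (Poisson chi-square test, Benjamini-Hochberg adjusted p of 5.18e-103, 0.00177, 1.69e-45 and 6.7e-20 across all genes tested). So did 96.5% of all genes tested, and 4 of 4 is near that background. By edgeR's quasi-likelihood dispersion 0 of the 4 were called more variable than genes of their level (adjusted p of 0.959 to 0.999), and this test called 0% of all genes, with 477 of 11168 at an unadjusted p under 0.05. Ngfr and Ntf3 were below the count minimum.

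Ntrk3 stood near the steady end of genes of its level. Among 1215 genes with a mean CPM within 1.5 times that of Ntrk3, the median ratio of the highest to the lowest library was 1.84, and 4.03% had a ratio below the 1.16 of Ntrk3. Its Poisson call was lost without replicate 3, with an adjusted chi-square p of 0.347. Sort1, with a ratio of 1.81, lay near the middle of its neighbours (52.7% of 1104 genes below it), and Ntrk2, with 1.57, had 69.9% of 292 genes below it. This ranking describes 3 libraries and was not tested.

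**Figure D3:**
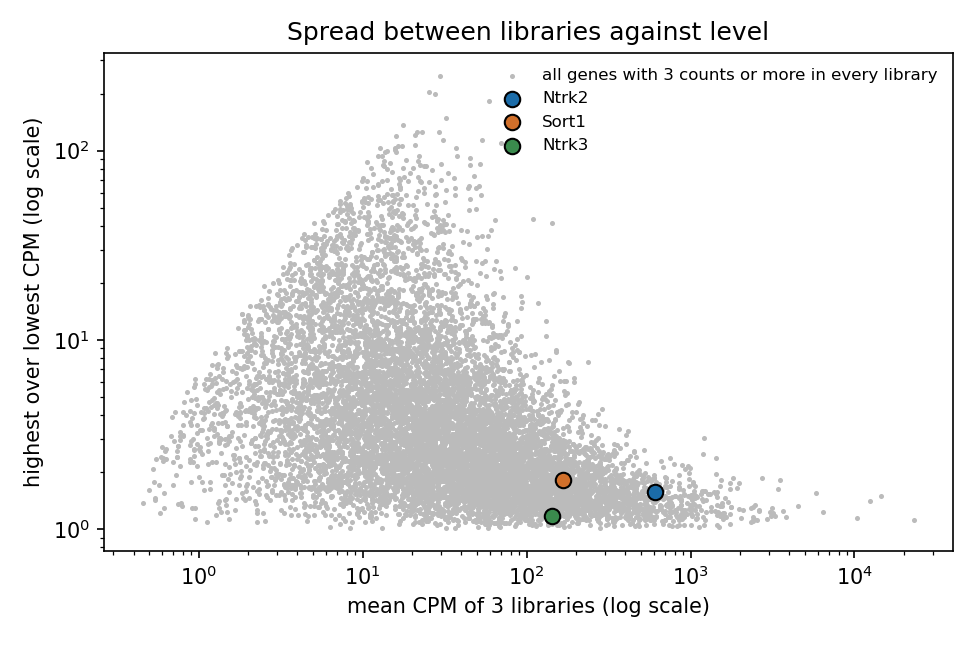
Ratio of the highest to the lowest library against mean CPM, both on log axes, for all genes with at least 3 counts in every library (grey) and for Ntrk2, Sort1 and Ntrk3 (coloured). Ntrk3, at a ratio of 1.16, lies at the lower edge of genes of its level, and Ntrk2 and Sort1 lie within the bulk.

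The libraries held 7622010 to 8842058 gene counts, and RNA of several cell types was present in all of them. Htr6 itself had 0, 7 and 0 counts. Glutamatergic deep nuclei markers summed to 423 to 666 CPM, with 5 of 6 at 3 counts or more in every library. Granule cell markers (8 of 8, 3192 to 3848 CPM) and Purkinje cell markers (8 of 8, 5827 to 8014 CPM) had higher sums. Itpr1 (3148, 3934 and 3923 CPM) and Rgs8 (1470, 2312 and 1418 CPM) made up most of the Purkinje cell sum, while Pcp2 was at 13.9, 29.7 and 39.1 CPM. These sums depend on the genes in each list and do not rank the cell types. Oligodendrocyte markers (6 of 6) reached 2890 to 3662 CPM, while microglial markers (3 of 6) stayed at 19.8 to 35.9 CPM, with C1qa, Aif1 and Trem2 at 0 in all libraries. In such a mixture, fewer cells of a type and less RNA per cell cannot be told apart.

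The order of the 3 libraries in marker sums is set beside that of the 6 genes, with the number of single markers that took it. Ntrk2, whose truncated form is known from astrocytes, was lowest in replicate 1 and highest in replicate 2. The Purkinje cell sum (5827, 8014 and 7233 CPM) and the vascular sum (45.3, 93.5 and 70.2 CPM) took that order, but only 3 of 8 and 0 of 6 of their markers did. The astrocyte and Bergmann glia markers summed to 2454, 2489 and 2859 CPM, and Slc1a2 and Aldoc made up most of this sum. Of these 8 markers 5 were lowest in replicate 1, as Ntrk2 was, beside 6 of 8 granule cell and 5 of 8 Purkinje cell markers. Gfap and Gja1 took its whole order, but Gja1 was at 18.6 CPM in both replicates 2 and 3. So did 3 of 8 pan-neuronal, 2 of 8 granule cell and 2 of 6 oligodendrocyte markers. Sort1 and Ntrk3 were both highest in replicate 1 and lowest in replicate 3, as were the pan-neuronal sum (25260, 23220 and 17280 CPM) and the glutamatergic deep nuclei sum (666, 476 and 423 CPM). Of the single markers 3 of 8 pan-neuronal ones (Snap25, Nefl and Nefm) and 1 of 6 of the deep nuclei (Slc17a6) took that order. Snap25, at 16990, 15360 and 11400 CPM, made up most of the pan-neuronal sum. The order was also that of 3 of 6 oligodendrocyte markers (Mbp, Mobp and Mag), whose sum was highest in replicate 2, and of Aldoc and Olig2. Bdnf was lowest in replicate 1 and highest in replicate 3, as were the granule cell sum (3192, 3701 and 3848 CPM; 4 of 8 markers) and the astrocyte sum (3 of 8 markers). Ngfr, a gene also used by Schwann cells and meninges, had 22, 0 and 7 counts beside a sum of 37.9, 18.6 and 67.2 CPM for those markers, where Prx was at 0 in all libraries. The part of these cell types in the levels of Ntrk2, Ntrk3, Sort1, Bdnf and Ngfr was not tested.

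The rest of the ligand and receptor family was uneven. Ntf5, the gene of the TrkB ligand neurotrophin-4, had 0 counts in every library. By the exact Poisson upper limit used for Ngfr, this allows up to 0.488, 0.419 and 0.473 CPM in replicates 1, 2 and 3. Of the relatives of Sort1, the endosomal sorting receptor gene Sorl1 had 2217, 2167 and 2088 counts, or 23.8 ± 2.10 RPKM (SD, n = 3), a level near the 21.9 ± 6.26 RPKM of Sort1. Sorcs1, Sorcs3 and Sorcs2 were far lower, at 2.40 ± 1.64, 2.11 ± 1.56 and 1.06 ± 0.443 RPKM (20.2 ± 13.8, 15.03 ± 11.11 and 9.31 ± 3.90 CPM). Each of these Sorcs genes was lowest in replicate 1 and highest in replicate 3, which is the opposite order to Sort1 and the order of Bdnf. In all, 4 of 7 genes of this list (57.1%) had at least 3 counts in every library, against 31.5% of all 32531 genes.

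Genes that carry the signal inside the cell were mostly well counted. Of 24 Trk adaptors and scaffolds, 23 reached 3 or more counts in each library and 19 a mean of at least 10 CPM, with a list median of 5.76 ± 0.15 on the log2(CPM + 1) scale. The same median over the 11168 genes tested for spread was 4.59 ± 0.02, and 89.1% and 72.5% of those genes met these conditions. Kidins220, a scaffold bound by Trk receptors and p75, led this list per length at 65.9 ± 19.1 RPKM (SD, n = 3). It was followed by the ubiquitin ligase gene Nedd4l at 55 ± 13.4 RPKM and by Sos2 and Sos1, the Ras exchange factor genes, at 39.8 ± 7.55 and 35.9 ± 5.51 RPKM. The lowest were the adaptor genes Frs3 (8, 10 and 9 counts) and Sh2b2 (36, 0 and 1 counts).

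The MAP kinase and PI3 kinase branches were counted almost throughout. All 22 genes of the Ras and MAP kinase list reached 3 or more counts in each library and 20 reached 10 CPM, with a median of 5.95 ± 0.19. Of the 11168 genes tested for spread, which were chosen for their counts, 89.1% and 72.5% met these conditions. Mef2d, an activity-dependent transcription factor gene, was at 44.0 ± 17.2 RPKM (SD, n = 3), the kinase gene Braf at 41.0 ± 3.37 RPKM, and the small GTPase gene Rap1a at 38.0 ± 2.55 RPKM. Hras (4, 17 and 13 counts) and Rps6ka5 (202, 247 and 134 counts) were the lowest. In the PI3 kinase and Akt list all 17 genes reached 3 or more counts in each library and 16 reached 10 CPM, with the highest median of the lists, 6.99 ± 0.39. The kinase gene Gsk3b led it at 101 ± 14.4 RPKM, above the regulatory subunit genes Pik3r3 (39.4 ± 23.1 RPKM) and Pik3r1 (36.0 ± 7.65 RPKM). Its lowest members were Pik3cd (127, 10 and 122 counts) and Pik3r2 (20, 44 and 42 counts).

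Partners of p75 had a list median that differed between libraries. Of 14 co-receptor and adaptor genes, 13 (92.9%) reached 3 or more counts in each library and 10 (71.4%) reached 10 CPM. These shares were near the 89.1% and 72.5% of the 11168 genes tested for spread, which were chosen for their counts. Of all 32531 genes 31.5% and 25.1% met these conditions. The list median was 6.12 in replicate 1 and 4.24 in each of the other libraries. Maged1, a p75-binding adaptor gene, was the highest at 68.0 ± 22.8 RPKM (SD, n = 3). Arhgdia, the gene of a GTPase inhibitor that binds p75, followed with 770, 229 and 550 counts, then the Nogo receptor gene Rtn4r with 813, 327 and 17 counts and the kinase gene Ripk2 with 1213, 40 and 78 counts. Replicate 1 was the highest in these 3 genes, as it was for Ngfr, but the lowest in Maged1 (190, 387 and 311 CPM). Nfkb1 had 33, 126 and 21 counts, and Tradd had 0 in all libraries. By the exact Poisson upper limit used for Ngfr, a count of 0 allows the most in replicate 1, up to 0.488 CPM.

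Genes for cutting and releasing neurotrophin precursors were counted about as often as genes chosen for at least 10 counts in 2 libraries. Of 14 such genes, 12 (85.7%) reached 3 or more counts in each library and 9 (64.3%) reached 10 CPM. The shares were 89.1% and 72.5% of the 11168 genes tested for spread, which were chosen in that way. Of all 32531 genes they were 31.5% and 25.1%. The list median was 5.29 ± 0.32. The carboxypeptidase gene Cpe, which sorts and trims granule peptides, had 2168, 1497 and 1288 counts (79.5 ± 26.4 RPKM; SD, n = 3). The granin gene Scg2 was at 69.96 ± 11.98 RPKM. Cadps and Cadps2, genes of proteins that prime dense core vesicles for release, were at 38.4 ± 4.99 and 19.5 ± 4.93 RPKM. The convertase gene Pcsk7 had 1, 39 and 20 counts, and the protease gene Mmp9 had 0 in all libraries.

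**Figure D4:**
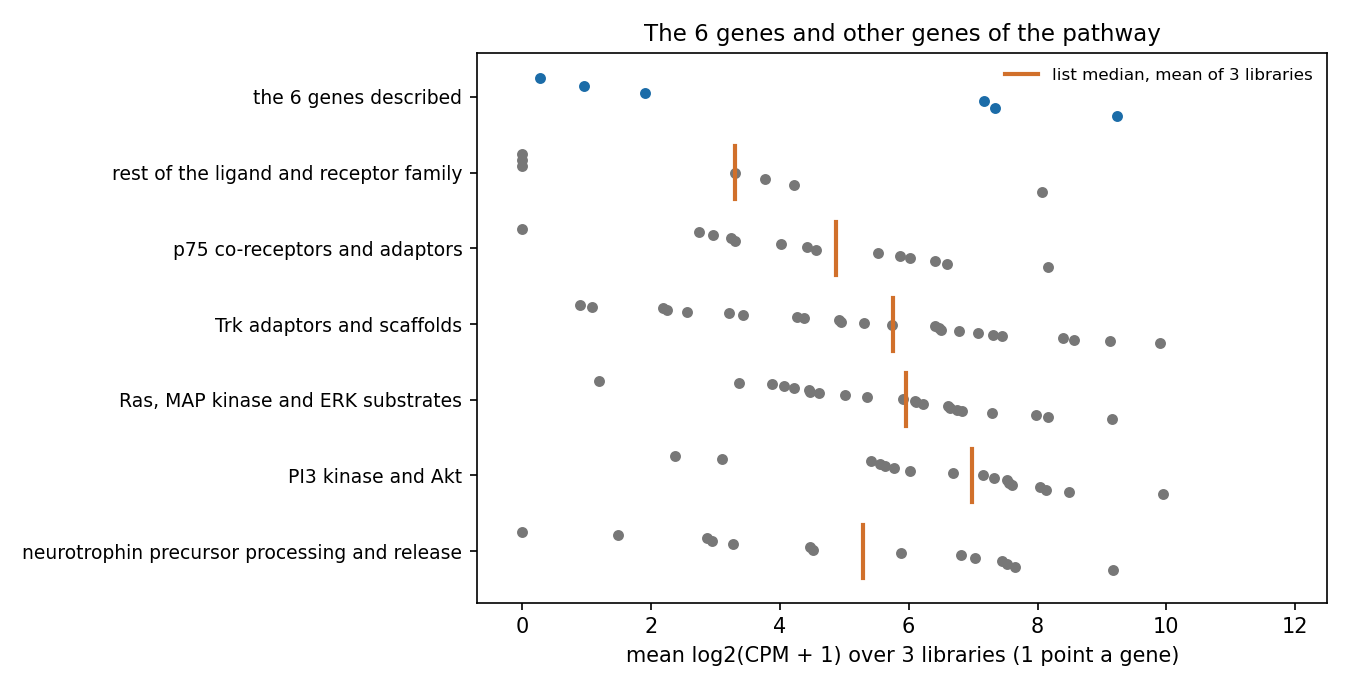
Mean log2(CPM + 1) over 3 libraries of the 6 genes (blue) and of the 98 other pathway genes by list (grey), with 1 point a gene and an orange line at each list's median. The PI3 kinase and Akt list has the highest median, 6.99, and the rest of the ligand and receptor family the lowest, 3.30.

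The genes of the pathway lists whose pattern over the 3 libraries was most like that of each receptor were sought among the 88 with at least 10 counts in every library. Likeness was the root mean square difference of their deviations from the own mean of log2(CPM + 1), and with 3 libraries it is a description. For Ntrk2 the nearest were Sos2 (0.04), Cadps2 (0.09) and Adam17 (0.09), all lowest in replicate 1 and highest in replicate 2. For Ntrk3, Braf and Sos1 (0.10 each) were among the nearest. For Sort1 they were Ptprs (0.15), Irs1 (0.16) and Rps6ka5 (0.16), all lowest in replicate 3 as Sort1 was. Irs1 was highest in replicate 1 like Sort1, whereas Ptprs and Rps6ka5 were highest in replicate 2.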

How the data were processed

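The authors deposited, for each of the 3 libraries of the 1 group, a table of raw counts by gene symbol. STAR 2.0.0e, HTSeq and the mm10 build are named in the submitters' processing notes, while the annotation and strand setting are not. The summary rows and a row named unknown with 0 counts were left out of library sizes. Of the counted reads, 44.1% to 50.2% fell on no feature and 1.77% to 1.95% on several genes. CPM used TMM effective library sizes (edgeR 4.0.16, R 4.3.3). RPKM used exon lengths of GENCODE M21 (23162 symbols matched, all 98 pathway genes included). Of the 50-base stretches of the 6 genes, at most 0.854% recurred in other genes, apart from the antisense overlaps of Sort1 (3.81%) and Bdnf (12.7%). Pseudocounts were 1 (CPM) and 0.1 (RPKM), which understates folds of low genes.

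Genes that reached 10 counts in 2 libraries were tested for spread, with a chi-square test against Poisson counting error and with the quasi-likelihood dispersion of edgeR (glmQLFit with an intercept), using Benjamini-Hochberg adjustment and a threshold of 0.05; the script was tested on simulated data. Pairs were tested with an exact sign-flip permutation test (Python 3.11.15, scipy 1.17.1). Alternatives were DESeq2 1.42.0 size factors, total counts, other lengths, pseudocounts and filters, robust estimation and leaving out each library. The 6 genes, the lists and the tests were chosen with earlier results of these data known. Named are the 6 genes, Htr6, the whole remaining family, the 4 highest and 2 lowest genes per length in each other list, and the 3 nearest in pattern, apart from some that are not reported here; Rpl10a had 82.3 ± 18.4 CPM (SD, n = 3). Marker lists not given in the report, in summed CPM, were GABAergic and glycinergic (397 to 890) and oligodendrocyte precursor (93.5 to 270.1).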

Additional observations from a re-analysis of the deposited data

How the results depend on the processing

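Many of the 135 recomputed differences between members of the 15 pairs could hardly reverse. Scaling cancels within a library apart from the pseudocount, and leaving out a library keeps a sign that every library shares. Of the 135, 133 kept their direction. The exceptions were both of Ngfr minus Bdnf, which was -0.63 log2 units of RPKM + 0.1 with all libraries and ranged from -2.44 without replicate 1 through 0.17 without replicate 3 to 0.36 without replicate 2; this difference has no stable sign. The Poisson test called 4 of 4 genes with all libraries, and 2 to 4 when 1 library was left out: 2 of 3 tested without replicate 3, where Ntrk3 was not called and Bdnf not tested. With no filter on low counts it called all 6. Under DESeq2 size factors and total counts, levels, numbers of genes at 10 CPM and list medians kept within their spread or within 1.5 times. Numbers of genes with 3 or more counts in every library do not depend on scaling. Leaving out a library also kept levels and medians within their SD, but the mean of the remaining libraries can hardly leave that range. Bdnf was at 4.44 CPM with all libraries and 1.64 CPM without replicate 3, and Ntf3 at 0.265 CPM and at 0 without replicate 1. Across all genes, edgeR's quasi-likelihood test called 0 with all libraries, 20 with no filter, and 3, 5 and 2 without replicates 1, 2 and 3, none of them among the 6. No paired analysis was possible because there is only 1 group. Depth limits Ngfr, Bdnf and Ntf3, with counts of 0 to 78, whose order differed between libraries.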
